A study of Mus musculus with 6 samples.

Results

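The IL-1 family genes described here were Il1a, Il1b, Il18, Il1rn, Il18bp, Il1r1, Il1r2, Il1rap and Il1rl1. They were chosen by gene symbol, as the rows of the count table whose Ensembl identifiers carry these names in the GENCODE vM21 annotation. Their values did not enter this rule, but earlier results of these data were known when the genes and lists below were chosen. Counts of called genes below are therefore descriptive. All 9 were among the 21780 genes of the table, and all 9 passed the filter on low counts that left 14429 genes for testing. The libraries came from CD45+CD11b+ cells, a gate that takes myeloid cells, which were sorted out of pancreas tissue from C57BL/6 mice aged 6 to 8 weeks, with no engineered allele named for them. PBS mice had received 1 intraperitoneal injection of phosphate-buffered saline, and WGP mice had received 1 injection of 1 mg of whole glucan particles, hollow β-glucan shells of the yeast Saccharomyces cerevisiae. All were taken on day 7 after injection, with 3 libraries in each group. Mice of both sexes were used, but the sex of the mouse behind each library is not given in the sources used here. Per the study each library came from a different animal, and all belonged to 1 experiment, so p-values measure the spread between animals of that experiment.

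IL-1 family cytokines are ligands made largely by myeloid and barrier cells. IL-1α and IL-1β bind the receptor IL-1R1, which then recruits the accessory chain IL-1RAcP (Il1rap) and signals through MyD88 to NF-κB and MAP kinases. The system is held in check at several points: the receptor antagonist IL-1Ra (Il1rn) occupies IL-1R1 without signalling, IL-1R2 is a decoy without a signalling domain, and IL-18 is neutralised by its binding protein (Il18bp). Il1rl1 encodes ST2, the receptor of IL-33. IL-1β and IL-18 are made as precursors and matured by caspase-1 in inflammasomes, so transcript levels do not report the active cytokine.

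Of the 9 genes, 5 rose in the WGP libraries (Il1a, Il1b, Il1rn, Il18bp and Il1rap), 1 fell (Il1rl1) and 3 did not pass the test (Il18, Il1r1 and Il1r2). A gene was called where its adjusted p was 0.05 or less and its log2 fold change was 1 or more in either direction, in edgeR's quasi-likelihood test over all 14429 genes. Over all genes tested 653 (4.53%) were called higher and 716 (4.96%) lower, 9.49% in either direction. At the adjusted p alone, without the fold change threshold, the counts for the 9 genes stayed at 5 and 1, against 14.4% of all genes in either direction. The WGP libraries lay wholly above the PBS libraries for 6 genes and wholly below for 1, where 32.0% of all genes tested had groups that did not overlap in one direction or the other. The median log2 fold change of the 9 genes was 1.65, and that of all genes tested was -0.05.

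The libraries held between 35334645 and 43341834 counts. Genes that mark the sorted myeloid cells (Ptprc, Itgam, Csf1r, Lyz2 and Adgre1) had a summed level of 8595 to 14388 CPM (counts relative to the library total, after TMM scaling) in PBS and of 20720 to 22025 CPM in WGP. Of these 5 genes Lyz2 alone was called higher, Ptprc and Itgam passed at the adjusted p alone (log2 fold changes 0.71 and 0.79), and Csf1r and Adgre1 had lower values in WGP that did not pass (-0.31 and -0.43). Of 8 resident macrophage markers 7 were lower in WGP and none was higher, and of 7 markers of Ly6C-high monocytes 4 were higher and 1 was lower. Of 9 neutrophil markers 1 was higher and 1 lower, and all 5 B cell markers and all 7 acinar cell markers were lower. PBS replicate 1 stood apart with the most B cell marker counts (summed level 2414 CPM against 361 and 621 CPM in the other PBS libraries). WGP replicate 2 stood apart in fibroblast markers (1817 CPM against 33.7 to 175 CPM in the other 5 libraries). Genes of the Y chromosome had 8972 and 10063 counts in PBS replicates 2 and 3 and at most 1 count in any other library. Treatment was thus partly confounded with sex, and a difference between male and female mice cannot be told apart from one of WGP. Where Y-linked counts are a covariate below, PBS replicate 1 is the only control left for the WGP libraries. In such bulk libraries, fewer cells of a type and less RNA per cell cannot be told apart. The part that these differences in cell make-up had in the levels below was not tested unless a value is given.

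The plot of levels by library shows the 9 genes side by side, and the plot of fold changes shows the same genes with the other tested family members.

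**Figure D1:**
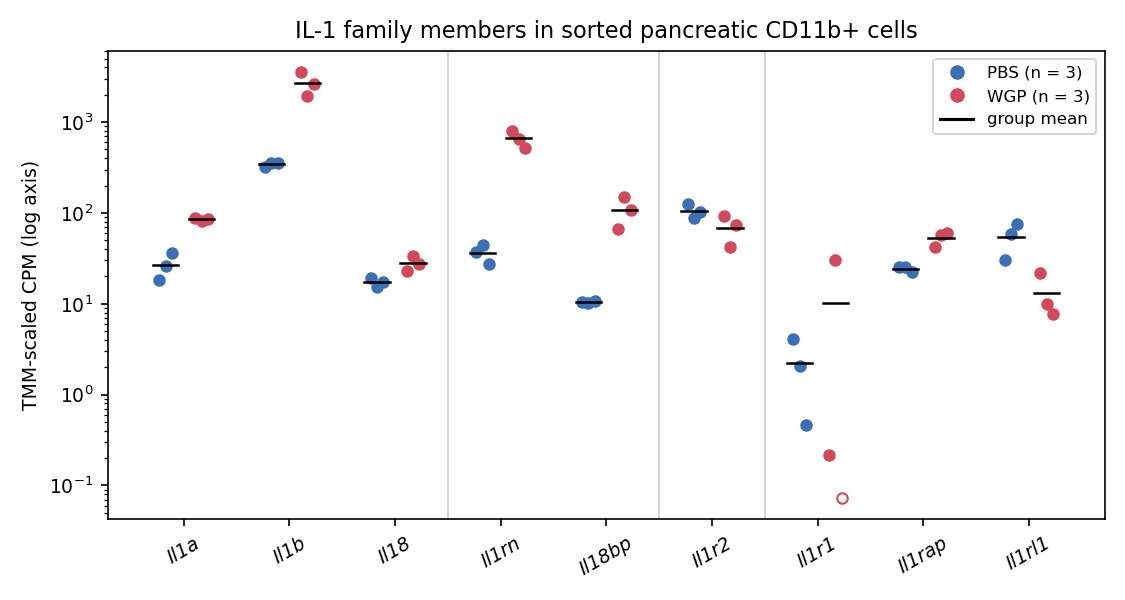
Levels of the 9 IL-1 family genes, in TMM-scaled CPM on a log axis, with 1 point per library and a bar at each group mean (n = 3). The WGP libraries lie above all PBS libraries for Il1a, Il1b, Il18, Il1rn, Il18bp and Il1rap and below them for Il1rl1, and the open circle marks the 1 library with no Il1r1 count, drawn at the level of 3 counts.

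Il1b (ENSMUSG00000027398, GRCm38 chr2:129364570-129371139, minus strand, 6 exons) encodes IL-1β, the main secreted ligand of IL-1R1. Its level was 322, 352 and 351 CPM in the PBS libraries and 3557, 1960 and 2651 CPM in the WGP libraries. Every WGP library held more than any PBS library, and the PBS values lay close together while the WGP values spread more widely. Il1b rose 7.96-fold, a log2 fold change of 2.99 (standard error, SE, of 0.22, adjusted p = 2.20e-05 in edgeR). Per kilobase of exon it was the highest of the 9 genes in both groups, and among the 21754 genes ranked by CPM per kilobase it moved from place 187 in PBS to place 17 in WGP.

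Il1a (ENSMUSG00000027399, chr2:129299610-129309972, minus strand, 7 exons) encodes IL-1α, which is active without processing by caspase-1 and acts both from the cell surface and when released by dying cells. Its level was 18.2, 26.2 and 36.5 CPM in PBS and 87.7, 80.9 and 86.2 CPM in WGP. The groups did not overlap, and the PBS libraries differed among themselves by more than the WGP libraries did. Il1a rose 3.15-fold, a log2 fold change of 1.65 (SE 0.24, adjusted p = 0.00121 in edgeR).

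Il18 (ENSMUSG00000039217, chr9:50554827-50581840, plus strand, 8 exons) encodes IL-18, which drives interferon-γ in lymphocytes and is made as a precursor already in resting cells. Its level was 19.1, 15.2 and 17.6 CPM in PBS and 23.1, 33.3 and 27.7 CPM in WGP. The groups did not overlap, yet the difference did not pass the test, with a log2 fold change of 0.70 (SE 0.24, adjusted p = 0.0843 in edgeR). Per kilobase of exon, Il18 and Il1a overlapped in PBS (16.8 ± 1.88 and 13.7 ± 4.67 CPM per kilobase, SD, n = 3). In WGP, Il1a was above Il18 in every library (43.0 ± 1.82 against 27.2 ± 4.92 CPM per kilobase).

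Il1rn (ENSMUSG00000026981, chr2:24336853-24351494, plus strand, 6 exons) encodes IL-1Ra, the antagonist that competes with IL-1α and IL-1β for IL-1R1. Its level was 37.3, 44.2 and 27.3 CPM in PBS and 806, 658 and 524 CPM in WGP. No WGP library came near the PBS range. Il1rn rose 18.3-fold, the largest fitted change among the 9 genes, with a log2 fold change of 4.19 (SE 0.24, adjusted p = 6.40e-06 in edgeR). Per kilobase it moved from sixth place among the 9 genes in PBS to second place, after Il1b, in WGP.

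Il18bp (ENSMUSG00000070427, chr7:102014885-102018690, minus strand, 4 exons) encodes the soluble protein that binds and neutralises IL-18. Its level was 10.5, 10.2 and 10.7 CPM in PBS and 66.2, 149 and 107 CPM in WGP. The PBS libraries were nearly level, and the lowest WGP library was several times above them. Il18bp rose 10.2-fold, a log2 fold change of 3.35 (SE 0.28, adjusted p = 4.29e-05 in edgeR). The strand setting of the counting is not given in the sources used here, and exons of 4 of the 9 genes overlap exons on the opposite strand: Il18bp by 80 bases (Numa1), Il1a by 222 (Gm14023), Il1b by 25 (Il1bos) and Il1rap by 552 (Gm20319). Reads in these stretches cannot be assigned with certainty.

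Because both antagonists rose, each was also compared with its ligand inside each library, where no scaling enters. The Il1rn to Il1b ratio, in CPM per kilobase, was 0.0399, 0.0432 and 0.0268 in PBS and 0.0781, 0.116 and 0.0681 in WGP. The ratio was higher in every WGP library than in any PBS library, and Il1b stayed above Il1rn in all of them. On the log2 scale of counts the group means differed by 1.24 (exact two-sided permutation test, p = 0.1, adjusted p = 0.15 over 3 ratios), and 0.1 is the smallest p that 3 libraries against 3 allow.

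The Il18bp to Il18 ratio was 0.188, 0.229 and 0.207 in PBS and 0.976, 1.52 and 1.31 in WGP. Il18 was thus several times above Il18bp per kilobase in each PBS library, and the levels were about equal or in favour of Il18bp in the WGP libraries. The group means differed by 2.59 on the log2 scale (exact two-sided permutation test, p = 0.1, adjusted p = 0.15 over 3 ratios). These lengths are those of the merged exons of all annotated isoforms, so a ratio per kilobase moves if shorter isoforms are used, while the difference between groups does not depend on the lengths.

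**Figure D2:**
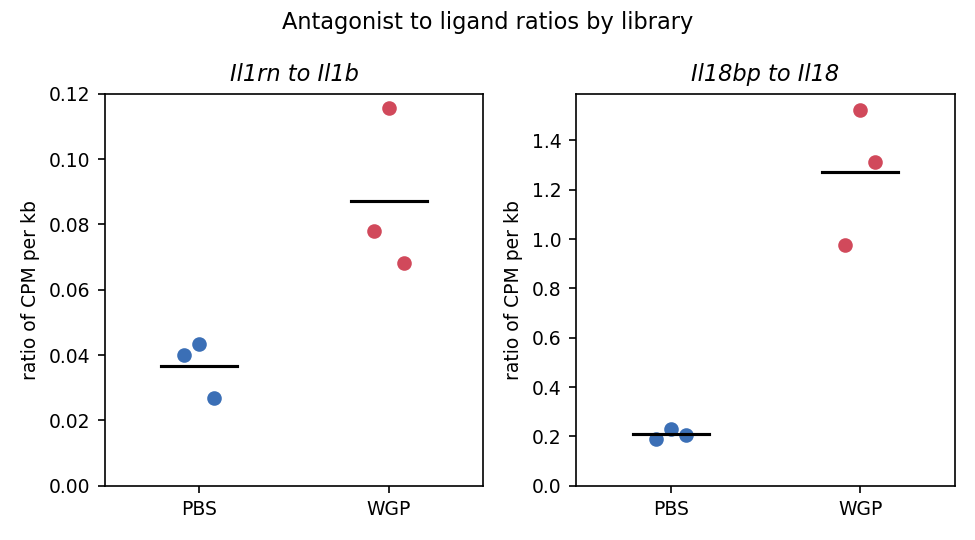
Ratio of CPM per kilobase of antagonist to ligand in each library, for Il1rn to Il1b and Il18bp to Il18, with a bar at the mean of the 3 libraries of a group and axes from 0. All 3 WGP points lie above all 3 PBS points in both panels.

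Il1a, Il1b and Il1rn lie on chromosome 2, and the bases before their starts are shown since all of them rose. Il18bp and Il1rap, which also rose, lie on other chromosomes and are not shown. All 9 genes had at least 1 window in the RefSeq promoter table (13 windows of 250 bases before and 50 after a start, build GRCm38.p6). Below are the 250 bases before the start for Il1a (chr2:129309973-129310222, minus strand), Il1b (chr2:129371140-129371389, minus strand) and 1 of the 3 listed starts of Il1rn (chr2:24345121-24345370, plus strand). This Il1rn start was picked because an NF-κB form lies before it, so that match is not a finding. Capitals mark TATAAA in Il1a and Il1b, an AP-1 form TGANTCA in Il1a and an NF-κB form (GGG, NN and TTTCC in a row) in Il1rn.
Il1a: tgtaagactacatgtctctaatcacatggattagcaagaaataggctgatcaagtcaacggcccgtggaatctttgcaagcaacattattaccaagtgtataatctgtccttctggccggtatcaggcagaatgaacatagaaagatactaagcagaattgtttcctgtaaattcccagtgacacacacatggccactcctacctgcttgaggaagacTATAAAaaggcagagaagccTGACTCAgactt
Il1b: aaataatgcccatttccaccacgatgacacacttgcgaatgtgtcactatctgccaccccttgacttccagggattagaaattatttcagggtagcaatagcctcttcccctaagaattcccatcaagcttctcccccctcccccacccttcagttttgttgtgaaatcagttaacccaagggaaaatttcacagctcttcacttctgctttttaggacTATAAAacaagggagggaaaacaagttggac
Il1rn: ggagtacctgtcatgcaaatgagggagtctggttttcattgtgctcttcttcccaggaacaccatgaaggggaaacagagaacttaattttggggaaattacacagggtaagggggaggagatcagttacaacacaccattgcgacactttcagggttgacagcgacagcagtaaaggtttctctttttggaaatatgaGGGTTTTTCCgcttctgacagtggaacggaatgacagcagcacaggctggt
Counting the start base as 0, TATAAA covered positions -32 to -27 in Il1a and -31 to -26 in Il1b, nearly the same distance from the start. The AP-1 form of Il1a covered -12 to -6 and the NF-κB form of Il1rn -51 to -42. Searched on both strands, TATAAA occurred in 13.6% of the 32851 windows of the table, the AP-1 form in 7.81% and the NF-κB form in 1.63%. The interferon forms with GAAA on both sides of NN (3.44% of windows) and with TTC and GAA around NNN (8.3%) occurred in no listed window of Il1a, Il1b, Il1rn or Il18bp. The Il1rn window also held TATAAA on the opposite strand after its start, at 14 to 19, beyond the bases printed. The other 2 starts listed for Il1rn had the AP-1 form in 1 window and the same NF-κB letters in the other, which overlaps the one shown. Outside these genes, the searched letters were found once each in Il18 (TATAAA, opposite strand), Il1r2 (TTC and GAA around NNN) and Il1rap (GAAA on both sides of NN), and in no window of Il1r1, Il1rl1 or Il18bp. These letters were chosen after the windows had been seen, and a match is a description and not a binding site.

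Il1a and Il1b are neighbours, with 54597 bases and no other gene of the table between them, and both rose. Il1rn closes another stretch of 198 kb with 5 further family genes and no other gene of the table. Of those 5, only Il36g had counts. It is listed as Il1f9 in the annotation (ENSMUSG00000044103, chr2:24186476-24193568) and encodes IL-36γ, a ligand of the receptor Il1rl2 best known from skin and lung. Il36g was at 36.0, 22.0 and 7.72 CPM in PBS and at 106, 83.0 and 91.7 CPM in WGP. The groups did not overlap, although the PBS libraries differed several-fold among themselves. Il36g rose 4.28-fold, a log2 fold change of 2.10 (SE 0.43, adjusted p = 0.00841 in edgeR). With a covariate for Y-linked counts its log2 fold change was 1.38 and the call was lost. Il36a, Il36b, Il36rn and Il1f10, and the neuronal receptors Il1rapl1 and Il1rapl2 on the X chromosome, had 0 counts in every library.

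The receptors did not move in one direction. Il1rap (ENSMUSG00000022514, chr16:26581704-26730117, plus strand, 14 exons) encodes IL-1RAcP, the chain shared by the receptors for IL-1, IL-33 and IL-36. Its level was 25.3, 25.3 and 22.2 CPM in PBS and 42.0, 57.8 and 59.8 CPM in WGP. The groups were separate, with the PBS libraries nearly level. Il1rap rose 2.19-fold, a log2 fold change of 1.13 (SE 0.20, adjusted p = 0.00389 in edgeR), close to the fold change threshold.

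Il1r2 (ENSMUSG00000026073, chr1:40074079-40125231, plus strand, 11 exons) encodes the decoy receptor, known from neutrophils and monocytes. Its level was 124, 88.4 and 103 CPM in PBS and 91.4, 42.1 and 73.2 CPM in WGP. The groups overlapped, since WGP replicate 1 was above PBS replicate 2. The log2 fold change was -0.61 (SE 0.26) and did not pass the test (adjusted p = 0.167 in edgeR). Neutrophil markers, which mark a cell type that carries the decoy, had summed levels of 4852, 2954 and 2066 CPM in PBS and 2444, 2321 and 2430 CPM in WGP. Both Il1r2 and this sum were highest in PBS replicate 1, but Il1r2 was higher in PBS replicate 3 than in replicate 2 and the sum was lower. The part of neutrophils in the Il1r2 level was not tested.

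Il1r1 (ENSMUSG00000026072, chr1:40225080-40317257, plus strand, 15 exons) encodes the signalling receptor for IL-1α and IL-1β, which stromal cells carry in abundance. It was the lowest of the 9 genes per kilobase in both groups. Its counts were 158, 80 and 19 in PBS and 8, 1246 and 0 in WGP. WGP replicate 2 alone held far more than any other library, and the other WGP libraries held less than any PBS library. The lowest of these counts can stem from very few molecules. The log2 fold change of 2.19 had an SE of 1.77 and did not pass the test (adjusted p = 0.466 in edgeR), and without WGP replicate 2 it was -4.31 (adjusted p = 0.276 in edgeR, with a range of 0.276 to 0.826 over 17 alternatives). No direction is given for Il1r1.

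WGP replicate 2 was also the library with the highest fibroblast markers, at 1817 CPM, with 15491 Col1a1 counts against 381 to 748 in the other 5 libraries. Pdgfra, a defining fibroblast gene, had 1952 counts in that library and 0 in the other WGP libraries. Mesothelial markers had a summed level of 49.6 CPM in that library and of 0.5 to 7.0 CPM in the others. Il33, the ligand of ST2 made by stromal and epithelial cells, followed the same library with 788 counts, against 84 and 95 in the other WGP libraries and 1, 104 and 52 in PBS. Its log2 fold change of 2.57 (SE 1.29) did not pass the test (adjusted p = 0.247 in edgeR), and it was 0.80 without WGP replicate 2 and 3.59 without PBS replicate 2. The part of stromal RNA in the Il1r1 and Il33 counts was not tested. The Il1r2 to Il1r1 ratio varied too much within WGP for a comparison (log2 of the count ratio 6.03 ± 1.51 in PBS and 7.22 ± 6.15 in WGP, SD, n = 3, exact two-sided permutation test, p = 0.8, adjusted p = 0.8 over 3 ratios).

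**Figure D3:**
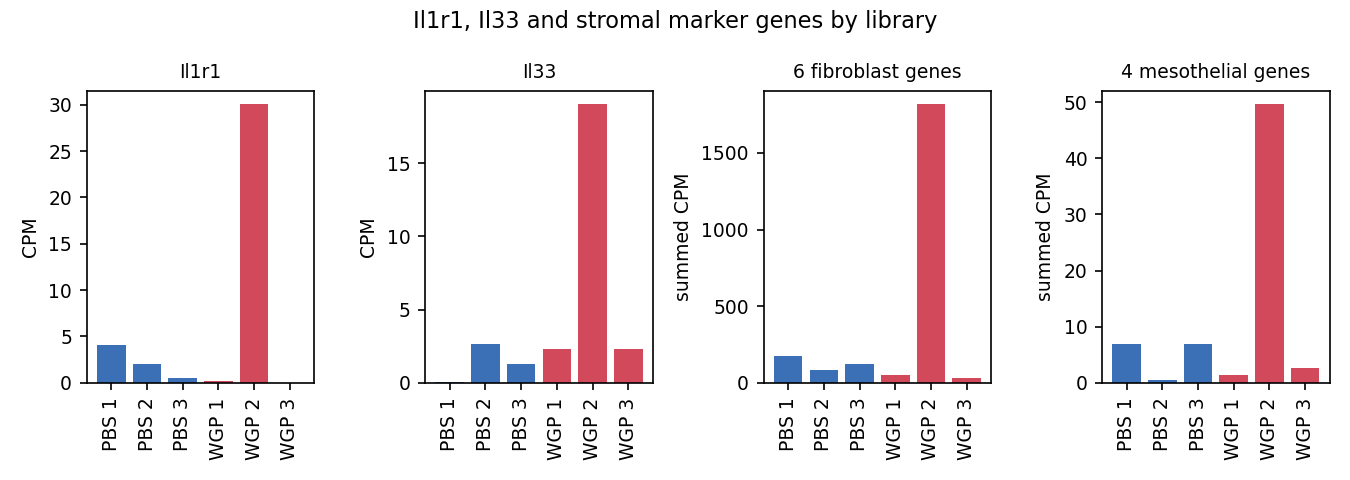
Bars give the level of Il1r1 and of Il33 (CPM) and the summed level of 6 fibroblast and 4 mesothelial marker genes (summed CPM) in each of the 6 libraries, PBS in blue and WGP in red, each panel with its own axis from 0. WGP replicate 2 is the highest bar in all 4 panels.

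Il1rl1 (ENSMUSG00000026069, chr1:40429570-40465415, plus strand, 13 exons) encodes ST2, which mast cells, group 2 innate lymphoid cells, regulatory T cells and some macrophages carry. Its level was 30.6, 58.8 and 75.4 CPM in PBS and 22.0, 9.89 and 7.67 CPM in WGP. All WGP libraries lay below all PBS libraries, with the smallest gap between PBS replicate 1 and WGP replicate 1. Il1rl1 was 4.17-fold lower in WGP, a log2 fold change of -2.06 (SE 0.43, adjusted p = 0.00916 in edgeR). PBS replicate 1, the lowest PBS library, was also the only one without Y-linked counts. With a covariate for Y-linked counts, which leaves PBS replicate 1 as the only control for the WGP libraries, the log2 fold change was -1.22 and the call was lost (adjusted p = 0.144 in edgeR, with a range of 8.25e-05 to 0.144 over 17 alternatives).

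Markers of cell types that carry ST2 were examined in the same libraries. The mast cell genes Cpa3 and Mcpt4 had 0 counts in all libraries. Fcer1a, Ms4a2 and Tpsb2 had 46, 40 and 32 counts in PBS replicate 1 and 0 elsewhere. These lie near 37, the most frequent low count of that library, so each can stem from very few molecules. The summed level of the mast cell and basophil markers was 11.6 to 31.5 CPM in PBS and 32.9 to 47.7 CPM in WGP, but Kit, which other cells also express, carried this rise. Kit was called higher, and the other 5 tested markers had negative log2 fold changes and were not called. Il5, made by group 2 innate lymphoid cells, had 0 counts in every library. Of the other 8 innate lymphoid and T cell markers, all tested, Il7r was called higher (log2 fold change 2.51) and Rora lower (-1.59), and the list had a summed level of at most 33.6 CPM in PBS and at most 57.9 CPM in WGP. Resident macrophage markers had summed levels of 8560, 14711 and 17910 CPM in PBS and 2946, 4975 and 4347 CPM in WGP. Within PBS their order was that of Il1rl1, whereas within WGP they were lowest in replicate 1, where Il1rl1 was highest. No markers of regulatory T cells were listed. The part of any of these cell types in the Il1rl1 level or difference was not tested.

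Il1rl1 lies in a row of 6 receptor genes on chromosome 1 that spans 478 kb (chr1:40074079-40551705) and holds no other gene of the table. The order is Il1r2, Il1r1, Il1rl2, Il1rl1, Il18r1 and Il18rap, all on the plus strand. Il1rl1 was the only one called, and Il18r1 starts 136 bases after its end. Il18r1, which encodes the ligand-binding chain for IL-18, was at 11.3, 6.03 and 5.01 CPM in PBS and at 1.38, 12.8 and 3.37 CPM in WGP, with overlapping groups. Its log2 fold change was -0.35 (SE 0.75, adjusted p = 0.831 in edgeR). Il18rap, its accessory chain, was at 46.7, 27.1 and 23.9 CPM in PBS and at 51.0, 55.6 and 47.2 CPM in WGP. It did not pass the test (log2 fold change 0.66, SE 0.26, adjusted p = 0.129 in edgeR), and without PBS replicate 1 it did (log2 fold change 1.01).

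Il1rl2, the receptor for the IL-36 ligands, was at 15.4, 19.9 and 8.89 CPM in PBS and at 7.71, 6.05 and 4.37 CPM in WGP. The groups were separate by a narrow margin, and the log2 fold change of -1.29 (SE 0.41) did not pass the test (adjusted p = 0.0670 in edgeR), but passed without PBS replicate 3 (log2 fold change -1.54). Sigirr, which encodes an inhibitory receptor of the family, was at 15.8, 3.44 and 6.55 CPM in PBS and at 7.00, 6.54 and 5.23 CPM in WGP. Its groups overlapped, and its log2 fold change was -0.46 (SE 0.57, adjusted p = 0.667 in edgeR). Of the 12 further family genes, 6 were thus tested, with a median log2 fold change of 0.16, and Il36g was the only one called, where 9.49% of all genes tested were called.

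**Figure D4:**
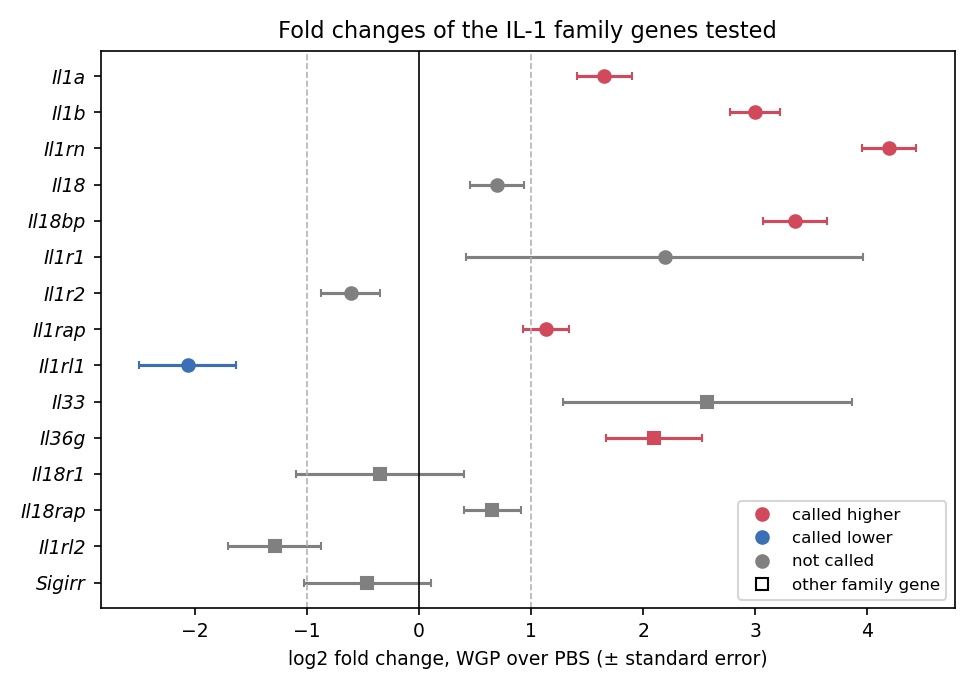
Log2 fold change of WGP over PBS, with its standard error, for the 9 IL-1 family genes (circles) and 6 other family genes tested (squares), dashed lines marking the fold change threshold of 1 in either direction. Il1a, Il1b, Il1rn, Il18bp, Il1rap and Il36g were called higher and Il1rl1 lower, and the widest error bar belongs to Il1r1.

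The order of levels per kilobase of exon changed between the groups. In PBS it ran from Il1b (179 ± 8.91 CPM per kilobase) over Il1r2 (55.1 ± 9.49), Il18, Il1a, Il1rl1 (7.97 ± 3.29), Il1rn (6.55 ± 1.53), Il18bp (3.47 ± 0.0735) and Il1rap (2.13 ± 0.157) to Il1r1 (0.347 ± 0.287). The values of Il18 and Il1a, of Il1a and Il1rl1, and of Il1rl1 and Il1rn overlapped between neighbours, and the other neighbours were separate in all 3 libraries. In WGP it ran from Il1b (1428 ± 420 CPM per kilobase) over Il1rn (120 ± 25.5), Il1a, Il1r2 (36.1 ± 13.1), Il18bp (35.4 ± 13.6), Il18, Il1rap (4.68 ± 0.860) and Il1rl1 (1.91 ± 1.12) to Il1r1 (1.59 ± 2.72). There Il1a, Il1r2, Il18bp and Il18 overlapped from neighbour to neighbour, as did Il1rl1 and Il1r1. Among these 9 genes the decoy receptor was thus next to Il1b in PBS, and the receptor antagonist was next to it in WGP.

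For each called gene the tested genes with the nearest profile were found, by the root mean square difference of log2 CPM over the 6 libraries after centring each gene on its mean. With so few libraries a near profile mostly reflects a like fold change, and shared control was not tested. The nearest to Il1b were Ptgs2, the inducible cyclooxygenase (0.17), and Ms4a4c (0.21). Those nearest to Il18bp were Ifi47 (0.15) and Irgm1 (0.17), both interferon-inducible GTPases. Il1rn was nearest to Tmod4 and Ifi205 (0.26 each). Tmod4 had 0 counts in all PBS libraries and 33, 43 and 24 in WGP, so its place depends on the constant added before taking logs, and its fitted log2 fold change was 8.06 against 4.19 for Il1rn. Ifi205, a gene of the interferon-inducible p200 family, had a log2 fold change of 3.94. Il1a was nearest to Neurl1b (0.098) and Pirb (0.11), and Il1rap was nearest to Ankrd49 (0.065) and Cipc (0.068). Il1rl1 had Mamdc2 (0.23) and Bfsp1 (0.29).

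Of 18 genes whose products mature or release IL-1β and IL-18, all tested, 3 were called higher and 1 lower, where 9.49% of all genes tested were called. At the adjusted p alone 4 were higher and 3 lower, where 14.4% of all genes tested passed. Their median log2 fold change was 0.14. Mefv, which encodes pyrin, an inflammasome sensor, was at 31.4, 25.3 and 17.7 CPM in PBS and at 232, 199 and 196 CPM in WGP, an 8.43-fold rise (log2 fold change 3.07, SE 0.22, adjusted p = 1.86e-05 in edgeR). Gsdmd, the pore-forming gasdermin D, was at 118, 115 and 107 CPM in PBS and at 282, 286 and 338 CPM in WGP (log2 fold change 1.41, SE 0.14, adjusted p = 0.000131 in edgeR). Pycard, the inflammasome adaptor ASC, was at 41.0, 49.3 and 56.4 CPM in PBS and at 89.3, 129 and 97.2 CPM in WGP (log2 fold change 1.10, SE 0.19, adjusted p = 0.00336 in edgeR). Its log2 fold change fell under the threshold without PBS replicate 1 (0.99) and without WGP replicate 2 (0.93). In all 3 genes every WGP library was above every PBS library.

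Elane, neutrophil elastase, which can cleave IL-1 family precursors, was called lower (log2 fold change -3.47, adjusted p = 0.0357 in edgeR), but the groups overlapped. Its level was 60.2, 9.63 and 2.64 CPM in PBS and 1.71, 3.42 and 1.39 CPM in WGP. Without PBS replicate 1, its highest library, the log2 fold change was -1.496 and the call was lost. The call was also lost without WGP replicate 1 or 3, with limma-voom, with the replicate block and with the filterByExpr filter. Casp1, which encodes caspase-1, was at 68.3 ± 23.2 CPM in PBS and 111 ± 6.30 CPM in WGP (SD, n = 3), and did not pass (log2 fold change 0.70, adjusted p = 0.0720 in edgeR). Nlrp3, the inflammasome sensor, was at 248 ± 57.3 and 339 ± 51.6 CPM and did not pass either (0.45, adjusted p = 0.172 in edgeR). Of the genes not called, Nlrp1b was higher at the adjusted p alone (log2 fold change 0.82), and Nek7 and P2rx7 were lower (-0.67 and -0.81). The gene with the highest mean CPM of the list, Ninj1, which ruptures the membrane late in lytic death, had a log2 fold change of 0.30 (adjusted p = 0.589 in edgeR). With a covariate for Y-linked counts, which leaves PBS replicate 1 as the only control, the log2 fold changes of Casp1 and Ninj1 were 1.30 and 1.24. That library was the lowest PBS library for both genes (45.1 and 147 CPM).

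In the list of 20 receptor signalling genes, 2 were called higher and 1 lower, where 9.49% of all genes tested were called, with a median log2 fold change of 0.23. Myd88, the adaptor that the receptors of the family share with Toll-like receptors, was at 109, 96.9 and 101 CPM in PBS and at 232, 242 and 211 CPM in WGP (log2 fold change 1.16, SE 0.14, adjusted p = 0.000333 in edgeR). Irak3, an inhibitory member of the IRAK kinases, was at 39.3, 52.5 and 54.7 CPM in PBS and at 143, 135 and 148 CPM in WGP (log2 fold change 1.54, SE 0.17, adjusted p = 0.000187 in edgeR). Map3k8, a kinase upstream of ERK, was at 173, 172 and 129 CPM in PBS and at 88.4, 55.2 and 77.9 CPM in WGP (log2 fold change -1.10, SE 0.20, adjusted p = 0.00462 in edgeR). Its call was lost without WGP replicate 2 (log2 fold change -0.92). None of these 3 genes had overlapping groups. The gene with the highest mean CPM, Tab2, had a log2 fold change of 0.02. It was 1 of 17 genes not called, of which Irak2, a kinase of the receptor complex, passed at the adjusted p alone (0.63).

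Among 17 genes that IL-1 and other NF-κB stimuli are known to induce, 16 were tested, 4 were called higher and 2 lower, where 9.49% of all genes tested were called. At the adjusted p alone 4 were higher and 4 lower, against 14.4% of all genes tested. The median log2 fold change of the 16 was -0.54. Saa3, an acute-phase protein of macrophages and stroma, was at 5.85, 3.52 and 15.0 CPM in PBS and at 384, 1233 and 780 CPM in WGP (log2 fold change 6.62, SE 0.63, adjusted p = 9.6e-05 in edgeR), and without PBS replicate 3 its log2 fold change was 7.42. Ptgs2 was at 87.9, 120 and 94.3 CPM in PBS and at 1044, 700 and 700 CPM in WGP (log2 fold change 3.02, SE 0.21, adjusted p = 1.86e-05 in edgeR). Bcl3, an atypical protein of the IκB family, was at 62.6, 58.6 and 48.3 CPM in PBS and at 217, 229 and 128 CPM in WGP (log2 fold change 1.76, SE 0.22, adjusted p = 0.000529 in edgeR). The groups of each were separate by a wide margin.

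The remaining calls of this list were less firm or went the other way. Il6 was at 1.38, 3.52 and 6.48 CPM in PBS and at 37.3, 10.1 and 11.8 CPM in WGP (log2 fold change 2.38, adjusted p = 0.0348 in edgeR), and WGP replicate 1 was far above the others. Without that library its log2 fold change was 1.53 and the call was lost. The Il6 call was also lost without PBS replicate 1 or 2, with limma-voom and with the replicate block. Without PBS replicate 3 its log2 fold change was 3.01. Nfkbiz, an NF-κB cofactor that IL-1 induces and the gene with the highest mean CPM of the list, was at 956, 1245 and 1250 CPM in PBS and at 504, 300 and 383 CPM in WGP (log2 fold change -1.54, SE 0.21, adjusted p = 0.000755 in edgeR). Ccl2, a monocyte chemokine, was at 110, 203 and 263 CPM in PBS and at 69.8, 98.2 and 73.9 CPM in WGP (log2 fold change -1.25, SE 0.28, adjusted p = 0.0135 in edgeR). Its call was lost with Y-linked counts as a covariate (log2 fold change -0.45) and without PBS replicate 2 or 3 or WGP replicate 1 or 3. Ccl20 had 0 counts in every library.

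**Figure D5:**
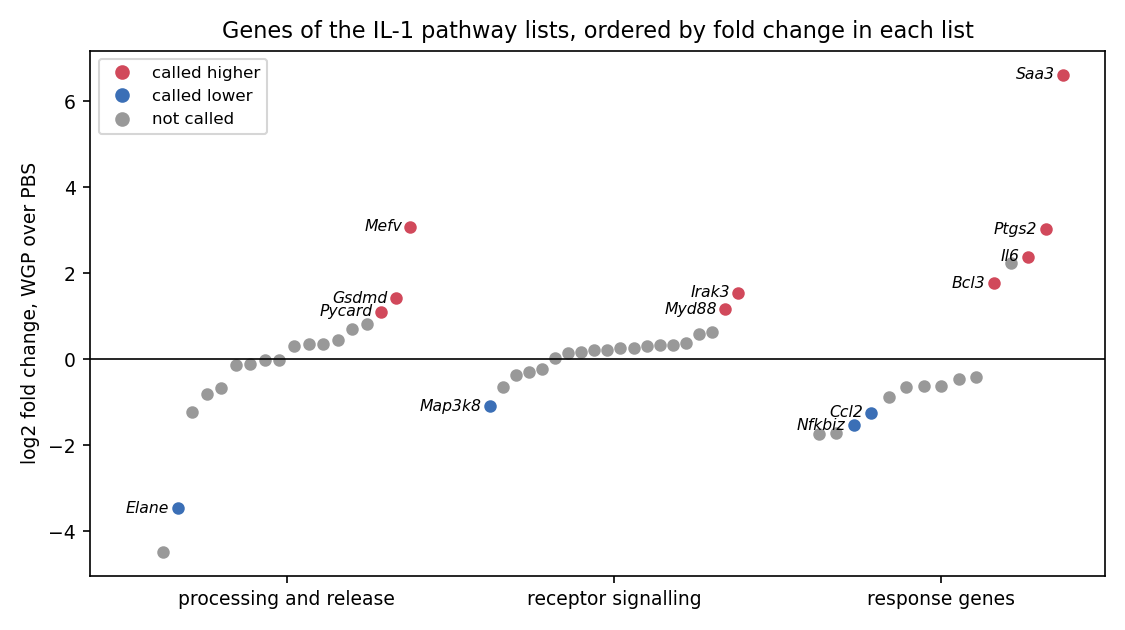
Log2 fold change of WGP over PBS (vertical axis) for the tested genes of the lists for processing and release, receptor signalling and response, ordered by fold change within each list, with called genes named. Each list holds genes on both sides of 0, from Elane at -3.47 to Saa3 at 6.62 among those called. Cxcl5, at 0 in all PBS libraries, is not drawn.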

How the data were processed

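RNA of sorted CD45+CD11b+ pancreatic cells was sequenced in 3 PBS and 3 WGP libraries, grouped by their labels. The authors aligned the reads with STAR 2.6 to mm10, counted them per Ensembl gene with HTSeq 0.10.0 and deposited raw counts, 1 column per library. The annotation release and strand setting are not given in the sources used here. Names, positions and exon lengths came from GENCODE vM21 (GRCm38).

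Tested were protein-coding genes whose RLE-normalized counts over 6 libraries added up to 10 or more. The test was run in R 4.3.3 with edgeR 4.0.16 (quasi-likelihood test, TMM factors, Benjamini-Hochberg over all genes tested). It was also run on counts simulated from the same model. That simulation lacks the differences in sex and cell make-up between libraries, so it is no check against them. CPM were TMM-scaled. Standard errors were taken as log2 fold change over the square root of F. Log2 ratios within a library had 0.5 added to each count and were compared by an exact permutation test. The alternatives were RLE factors, upper-quartile factors, library totals only, DESeq2 1.42.0, limma-voom (limma 3.58.1), other filters, all features, no fold change threshold, a covariate for Y-linked counts (at least 10), a replicate block, a pseudocount of 5 for the ratios and each library left out. Leaving out both PBS replicate 1 and WGP replicate 2 was added after seeing the data.

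Named were the 9 genes, the 12 other family genes and, in each pathway list, the called genes and the gene of highest mean CPM, with the 2 nearest profiles of each called gene. Casp1, Nlrp3, Nlrp1b, Nek7, P2rx7, Irak2, Cxcl5 and Ccl20 and single marker genes were added to these after seeing their values. The genes and lists were chosen with earlier results of these data known. Depth was 35334645 to 43341834 counts a library. The most frequent count between 5 and 99 was 18 to 37, so low counts can stem from very few molecules, and counting error alone understates their spread.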

Additional observations from a re-analysis of the deposited data

How the results depend on the processing

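The 5 genes called higher were called under all 17 alternatives for each (log2 fold changes 1.43 to 2.23 for Il1a, 2.75 to 3.18 for Il1b, 4.03 to 4.36 for Il1rn, 3.04 to 3.61 for Il18bp and 1.03 to 1.28 for Il1rap). With Y-linked counts as a covariate 0 of the 9 genes were called lower in place of 1, and 8 processing genes in place of 4, while 7 processing genes passed at the adjusted p alone. Of the other family genes, 2 were called with library totals only and with DESeq2, Il36g and Il1rl2. Library totals only moved the median log2 fold change of all genes by -0.10.

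Leaving out each library in turn gave 5 genes higher and 1 lower throughout, 1 to 2 other family genes, 3 to 5 processing genes, 2 to 3 signalling genes and 4 to 7 response genes. The difference of the Il1rn to Il1b ratio was then 1.02 to 1.40, that of Il18bp to Il18 2.45 to 2.77 and that of Il1r2 to Il1r1 -1.47 to 4.56, the negative value without WGP replicate 3. Pycard (without PBS replicate 1 or WGP replicate 2) and Map3k8 (without WGP replicate 2) then fell under the fold change threshold.

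With each library left out in turn, the log2 fold change was -4.31 to 3.00 for Il1r1, -1.64 to 0.12 for Il18r1, 0.80 to 3.59 for Il33 and -0.84 to 0.32 for Sigirr. The sign of the Il1r1 log2 fold change turned with limma-voom (-1.82), with the replicate block (-2.35), without WGP replicate 2 (-4.31) and without both PBS replicate 1 and WGP replicate 2 (-3.51). That of Il18r1 turned without PBS replicate 1 (0.08) and without WGP replicate 1 (0.12), and that of Sigirr without PBS replicate 1 (0.32) and without both (0.29). With Y-linked counts as a covariate, which leaves PBS replicate 1 as the only control, the log2 fold change of Il33 was 8.08. That library held 1 Il33 count, so this value rests on 1 library near the floor.

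Same-numbered libraries did not deviate together (correlations of 0.00, -0.04 and 0.01), so the numbers are not taken to pair them. Under the replicate block 5 of the 9 genes were called higher and 1 lower, and Elane and Il6 lost their calls, as they did with limma-voom. Depth does not limit Il1b or Il1rn, whereas Il1r1 and Il33 rest on few counts in most libraries.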
